A study of Mus musculus with 12 samples.

Results

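The regions described here are H3K4me3 peaks of KMT2D WT mouse melanoma cells that also carry both H3K27me3 and H3K27ac, called acetylated bivalent regions below. They were taken as autosomal WT H3K4me3 peaks that overlap, by at least 1 bp, a WT H3K27me3 peak and a WT H3K27ac peak. This gave 739 regions, which is 5.16% of the 14327 autosomal WT H3K4me3 peaks, out of 14723 on all chromosomes. The other autosomal WT H3K4me3 peaks were 1676 with H3K27me3 and no H3K27ac, 10214 with H3K27ac and no H3K27me3, and 1698 with neither mark. The question was which of the 3 marks were still called in KMT2D mutant cells, and whether the marks lay on the same bases or next to each other.

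H3K4me3 is the mark of promoters, and H3K27me3, placed by Polycomb repressive complex PRC2, is the mark of silenced developmental genes. A promoter with both is called bivalent, a state best known from embryonic stem cells, where it is held to keep genes silent but ready. H3K27ac, placed by the acetyltransferases CBP and p300, marks active promoters and enhancers. Acetylation and trimethylation use the same lysine, so a single histone tail cannot carry both at once. KMT2D, also called MLL4, is an H3K4 methyltransferase that acts mainly on enhancer H3K4me1, and its complex also holds the H3K27 demethylase KDM6A (UTX). When both marks are called over the same bases of a cell population, the peaks do not show whether they sit on different tails of a nucleosome, on different alleles or in different cells.

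The mutant melanoma cells were isolated from iBIP;KMT2DL/L mice, in which both Kmt2d copies are conditional, and the WT cells from iBIP;KMT2D+/+ mice. All iBIP mice, mutant and WT, carry the recombinase transgene Tyr-CreERT2, conditional PTENL/L and INK/ARFL/L, and the doxycycline-driven pair of TetO-BRAFV600E and Rosa26-rtta, on a background mixed from FVB and B6. The Cre is driven by the melanocyte tyrosinase promoter and activated by tamoxifen, while oncogenic BRAF is switched on by doxycycline. Doxycycline was given to the mice, and 1 uM of 4-OHT was put on the ears to start tumours there. The series text calls the mutant a knockout, and the peak lists, which name no genes, hold no check of the deletion or of the tumour cell type. Each genotype had 1 library for each of 5 marks, and an input. The number of animals or cell lines behind a library and their ages are not given in the sources used here. With 1 library per genotype and mark, no difference between genotypes has a replicate check, and no p-value is given.

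Read depth is unknown, and a mark is called present where the authors' peak list has a peak. A missing peak therefore means that none passed their threshold. The mutant lists held fewer autosomal peaks than the WT lists for H3K4me3 (13302 against 14327) and for H3K27ac (22083 against 24759). H3K27me3 went the other way, with 14630 mutant and 13204 WT peaks. In autosomal bases the mutant list was the larger for H3K4me3 (31.8 against 30.1 Mb) and H3K27ac (53.6 against 52.6 Mb) as well. All shares below are given with exact 95% binomial intervals, which cover counting error only and treat neighbouring peaks as independent.

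In the WT lists the acetylated bivalent regions were wide and strong in H3K4me3. Their median width was 2494 bp, against 1446 bp for bivalent peaks without H3K27ac and 2049 bp for H3K4me3 peaks with H3K27ac and no H3K27me3. The median H3K4me3 score, which reads as 10 times the −log10 p of the authors' peak caller, was 1223 in the acetylated bivalent regions, 302 in bivalent peaks without H3K27ac and 1237 in the acetylated peaks without H3K27me3. H3K27me3 and H3K27ac were each weaker there than in the class that carries that mark without the other. The best overlapping H3K27me3 peak had a median −log10 q of 4.21, against 5.23 in bivalent peaks without H3K27ac. The H3K27me3 peaks were also shorter, with a median total length of 1685 bp against 3680 bp. The best overlapping H3K27ac peak had a median score of 276, against 569 in acetylated peaks without H3K27me3. These WT values come from the lists that chose the regions and are a description only.

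Most regions were single sites. Only 60 of the 739 had another such region within 10000 bp. The 739 regions lay over 808 H3K27me3 peaks and 780 H3K27ac peaks, of which 14 and 4 reached more than 1 region. Few members rested on the edge of the overlap rule. The smallest overlaps were 2 bp of H3K27me3 at chr4:59450271-59452477 and 18 bp of H3K27ac at chr11:97847020-97848464, and 15 regions had under 100 bp of either mark. Just outside the rule, the H3K4me3 peaks at chr17:45872762-45874182 and at chr1:133140911-133142719 ended 5 and 12 bp short of a WT H3K27me3 peak. There were 16 such peaks with the missing mark within 100 bp, and 125 with it within 1000 bp, of which 105 lacked H3K27me3 and 20 lacked H3K27ac.

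H3K27me3 and H3K27ac mostly shared bases. At least 1 base inside the H3K4me3 peak was under both marks, and so under all 3, in 666 of the 739 WT regions (90.1%, 87.7 to 92.2). The shared stretch had a median of 862 bp (quartiles 442 and 1345 bp), which was 36.3% of the width of the region. In 294 regions the overlap was partial, each mark also covering bases of its own. In 215 regions the H3K27me3 lay wholly within the acetylated bases, and in 150 the H3K27ac lay wholly within the H3K27me3. In 7 regions the marks covered the same bases. The marks lay side by side, with no common base, in 73 regions (9.88%, 7.82 to 12.3). There the gap between them had a median of 281 bp and ran from 7 to 2924 bp, and it was at most 200 bp, about a nucleosome, in 29 of the 73. Seen from the outer edges, H3K27me3 reached farther on one side and H3K27ac on the other in 313 of the 739 regions. H3K27ac was outermost on both sides in 152, and H3K27me3 in 147.

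The mutant lists kept H3K4me3 at nearly every acetylated bivalent region and the K27 marks at fewer. A mutant H3K4me3 peak overlapped 713 of the 739 (96.5%, 94.9 to 97.7), against 88.6% of all autosomal WT H3K4me3 peaks. Mutant H3K27me3 overlapped 569 (77.0%, 73.8 to 80.0). The share among all autosomal WT H3K4me3 peaks, most of which had no WT H3K27me3, was 16.2%, and 64.9% of all autosomal WT H3K27me3 peaks had a mutant H3K27me3 peak. Mutant H3K27ac overlapped 494 (66.8%, 63.3 to 70.2). This is below the 76% of all autosomal WT H3K27ac peaks that had a mutant H3K27ac peak. The share among all autosomal WT H3K4me3 peaks was 68.8%, but that set includes peaks with no WT H3K27ac.

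All 3 marks were found in the mutant at 370 regions (50.1%, 46.4 to 53.7), against 3.79% of all autosomal WT H3K4me3 peaks. The full set includes these regions, the 5.16% of it with all 3 marks in WT, so the choice of regions sets much of this contrast. The next state was H3K4me3 with H3K27me3 and no H3K27ac, at 183 regions (24.8%, 21.7 to 28.0), against 9.65% of all. H3K4me3 with H3K27ac and no H3K27me3, the pattern of an active promoter, was found at 113 (15.3%, 12.8 to 18.1), against 61% of all. A further 47 regions had H3K4me3 alone (6.36%, 4.71 to 8.37). This state was found at 6.98% of bivalent peaks without H3K27ac, 9.15% of acetylated peaks without H3K27me3 and 54.8% of peaks with neither mark. Only 26 regions had no mutant H3K4me3: 11 with H3K27me3 alone (1.49%), 6 with H3K27ac alone (0.81%), 5 with both and 4 with none of the 3 marks. H3K27me3 alone was found at 20.9% of bivalent peaks without H3K27ac, and H3K27ac alone at 5.24% of acetylated peaks without H3K27me3. With a MACS score of at least 200 and a −log10 q of at least 5, set on the lists of both genotypes, only 87 regions qualified. All 3 marks reached these limits in the mutant at 29.9% of them (20.5 to 40.6).

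**Figure D1:**
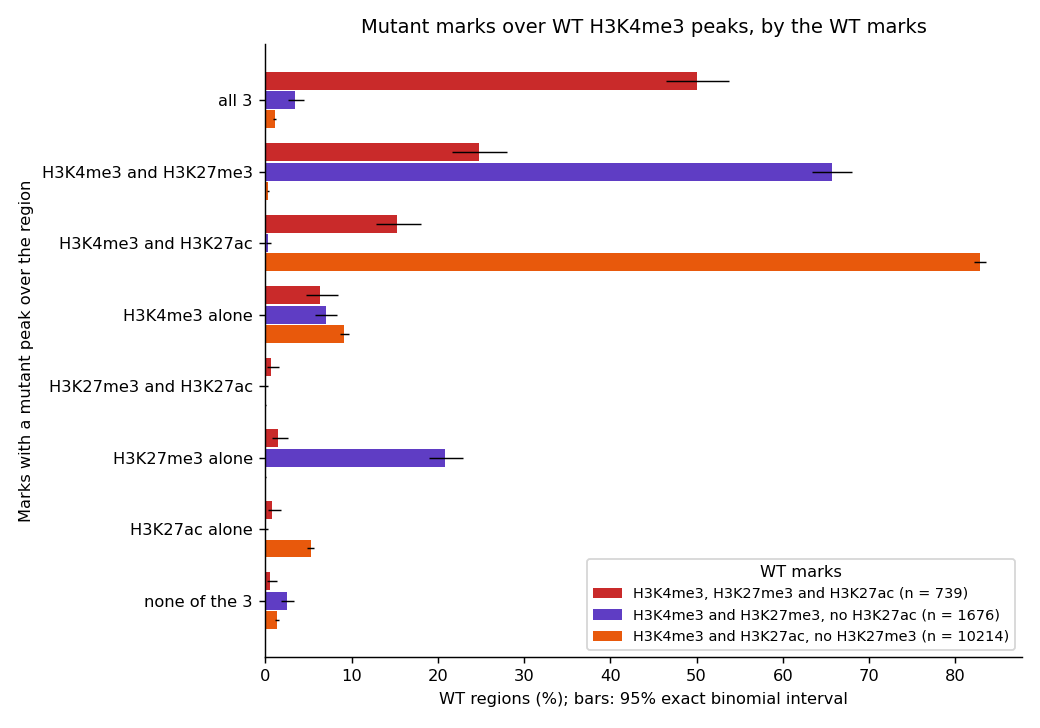
Share of WT regions (%, x axis) by the marks with a mutant peak over them (y axis), for acetylated bivalent regions and the 2 most like classes of WT H3K4me3 peaks; lines are 95% exact binomial intervals. Acetylated bivalent regions were spread over the states with all 3 marks (50.1%), H3K4me3 with H3K27me3 (24.8%) and H3K4me3 with H3K27ac (15.3%), while 65.8% of bivalent peaks without H3K27ac and 82.9% of acetylated peaks without H3K27me3 had their own WT pair of marks in the mutant.

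Where a K27 mark was missing in the mutant, a mutant peak of it was seldom within 1000 bp. Of the 245 regions without mutant H3K27ac, 4 had a mutant H3K27ac peak within 1000 bp and 53 within 10000 bp. Of the 170 regions without mutant H3K27me3, 25 had one within 1000 bp and 42 within 10000 bp. Of the 26 without mutant H3K4me3, 4 had a mutant H3K4me3 peak within 1000 bp and 12 within 10000 bp (46.2%, 26.6 to 66.6). The 26 regions were narrow and weak, with a median WT width of 1058 bp and a median WT H3K4me3 score of 159, against 2494 bp and 1223 over all 739.

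Each mark was compared with the class that carries it without the opposing one. Mutant H3K27me3 overlapped 77.0% of the acetylated bivalent regions and 90.2% of the bivalent peaks without H3K27ac, a difference of -13.2 percentage points (95% Newcombe interval -16.6 to -9.89). At like WT H3K27me3 strength, averaged over 5 groups by −log10 q, the difference was -3.63 points (-7.54 to 0.27). Mutant H3K27ac overlapped 66.8% of the acetylated bivalent regions and 89.2% of the acetylated peaks without H3K27me3, a difference of -22.4 points (-25.9 to -19.0). At like WT H3K27ac score this difference was -9.83 points (-12.9 to -6.80). Both differences were smaller at like WT strength. The intervals count peaks and not replicate libraries, and strength could still differ within a group. In the third of the 5 H3K27ac score groups, mutant H3K27ac was found at 98 of 148 acetylated bivalent regions (66.2%) and at 83.4% of acetylated peaks without H3K27me3. The strongest group held 4749 of the 10214 acetylated peaks without H3K27me3, and its shares were 99.3% and 99.4%.

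H3K4me3 went the other way. A mutant H3K4me3 peak was found at 96.5% of the acetylated bivalent regions and 76.5% of the bivalent peaks without H3K27ac, a difference of 20.0 points (17.5 to 22.4). At like WT H3K4me3 score it was 2.60 points (1.26 to 3.93). In the weakest of the 5 groups mutant H3K4me3 was found at 122 of 148 acetylated bivalent regions (82.4%) and 69.9% of the bivalent peaks without H3K27ac. This group held 1304 of the 1676 bivalent peaks without H3K27ac. The scores of its acetylated bivalent regions ran from 91.5 to 631, so strength could still differ within it. In the 3 strongest groups every region of both classes had mutant H3K4me3. Against acetylated peaks without H3K27me3, of which 93.4% had mutant H3K4me3, the difference was 3.07 points (1.42 to 4.28). At like WT H3K4me3 score this difference was 1.77 points (0.50 to 3.04), and in the weakest group the shares were 82.4% and 73.8%.

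The presence of each K27 mark in the mutant followed the strength of its own WT peak, in these regions and in the classes most like them. The regions were put in 5 equal groups by strength. In the weakest group by WT H3K27ac score (91.0 to 142), mutant H3K27ac was found at 46 of 148 regions (31.1%, 23.7 to 39.2). In the strongest (627 and above) it was found at 99.3% (146 of 147). Across the same groups, mutant H3K27me3 stayed between 71.6% and 79.7%. In the weakest group by WT H3K27me3 −log10 q, mutant H3K27me3 was found at 56.1% of regions (47.7 to 64.2), and in the strongest at 89.8% (83.7 to 94.2). Mutant H3K27ac ran the opposite way across these groups, from 75.0% in the weakest to 57.8% in the strongest. The median WT H3K27ac score was 278, 309, 306, 261 and 235 in these groups, from the lowest to the highest −log10 q. The group with the highest −log10 q thus also had the lowest H3K27ac score. The part of the H3K27ac score in the lower share of mutant H3K27ac was not tested. The fall was not seen with groups by WT H3K27me3 bases within the region. From fewest to most bases, mutant H3K27ac was found at 65.5%, 70.3%, 68.2%, 58.8% and 71.4%. The median WT H3K27ac score was 354 in the group with most bases and 264 in that with fewest. The rise with the strength of a mark's own WT peak was not particular to these regions. Over the same strength groups, mutant H3K27ac rose from 41.6% to 99.4% in acetylated peaks without H3K27me3. Mutant H3K27me3 rose from 56.7% to 97.8% in bivalent peaks without H3K27ac.

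**Figure D2:**
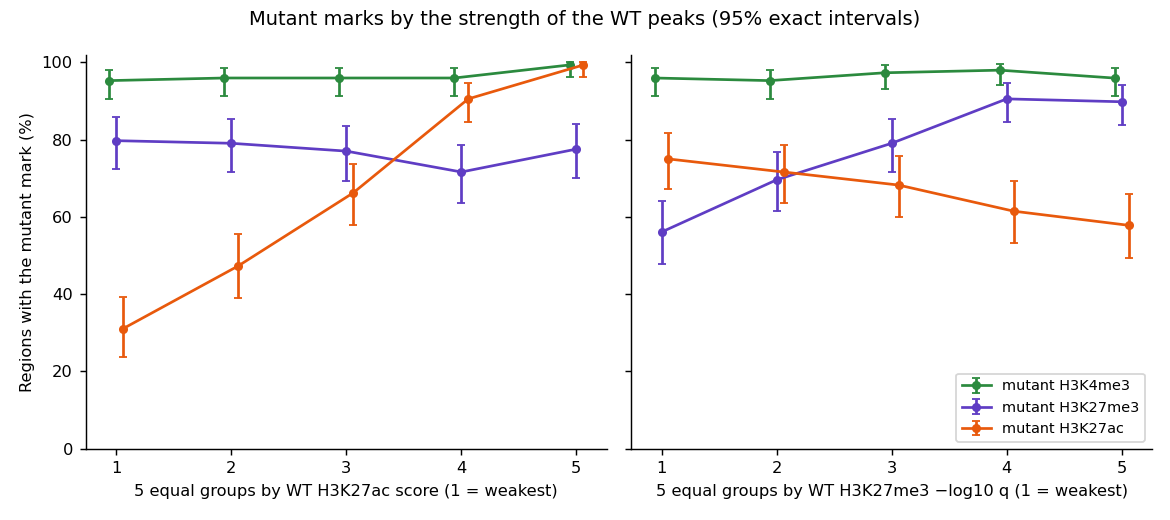
Share of the 739 regions with each mutant mark (%, y axis) in 5 equal groups from the weakest (1) to the strongest (5) by WT H3K27ac score (left) and WT H3K27me3 −log10 q (right); lines are 95% exact binomial intervals. Mutant H3K27ac rises from 31.1% to 99.3% with the WT H3K27ac score and falls from 75.0% to 57.8% with WT H3K27me3 −log10 q, while mutant H3K4me3 stays above 95%.

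The arrangement of the WT peaks went with the mutant state. Where WT H3K27ac lay within WT H3K27me3 (150 regions), the mutant had H3K4me3 with H3K27me3 and no H3K27ac at 76 (50.7%, 42.4 to 58.9), and H3K4me3 with H3K27ac and no H3K27me3 at 5 (3.33%, 1.09 to 7.61). Where WT H3K27me3 lay within WT H3K27ac (215 regions), these counts were 21 (9.77%, 6.15 to 14.5) and 69 (32.1%, 25.9 to 38.8). All 3 marks were found in the mutant at 39.3% of regions of the first arrangement (31.5 to 47.6), 48.8% of the second (42.0 to 55.7), and 57.5% of the partial overlaps (51.6 to 63.2). Side by side regions had all 3 in 33 of 73 cases (45.2%, 33.5 to 57.3), and each of the 73 had mutant H3K4me3. Peak strength moves with the arrangement. The median H3K27ac score was 185 where H3K27ac lay within H3K27me3 and 476 where it enclosed it, and the H3K27me3 peaks had median total lengths of 3613 and 791 bp. The part of strength in these differences was not tested.

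Counted in bases, the mutant had less H3K27ac and about as much H3K27me3 over the same regions. The 739 regions span 2.03 Mb, of which mutant H3K27ac covered 53.7% and WT H3K27ac 66.3%. H3K27me3 covered 48.4% in the mutant and 46.3% in WT. Bases under both marks made up 486 kb in the mutant and 647 kb in WT, and bases under H3K27me3 alone 497 kb in the mutant and 294 kb in WT. The regions were chosen for their WT peaks, so WT cover is high by choice and these differences are a description. The mutant H3K27me3 list was also more extended over all autosomes, at 37.6 Mb against 27.6 Mb in WT. The H3K27ac list was not smaller in the mutant by this measure, at 53.6 Mb against 52.6 Mb in WT.

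Of the WT bases under both marks, 41.9% were under both in the mutant, 24.3% under H3K27me3 alone, 24.2% under H3K27ac alone and 9.59% under neither. Of the WT bases under H3K27ac alone, 55.4% were the same in the mutant, 20.9% were under both marks and 6.63% under H3K27me3 alone. Of the WT bases under H3K27me3 alone, 64.7% were the same in the mutant, 15.0% were under both marks and 4.36% under H3K27ac alone. A complete exchange of one K27 mark for the other was thus called over few bases, and the loss or addition of one of them over more.

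**Figure D3:**
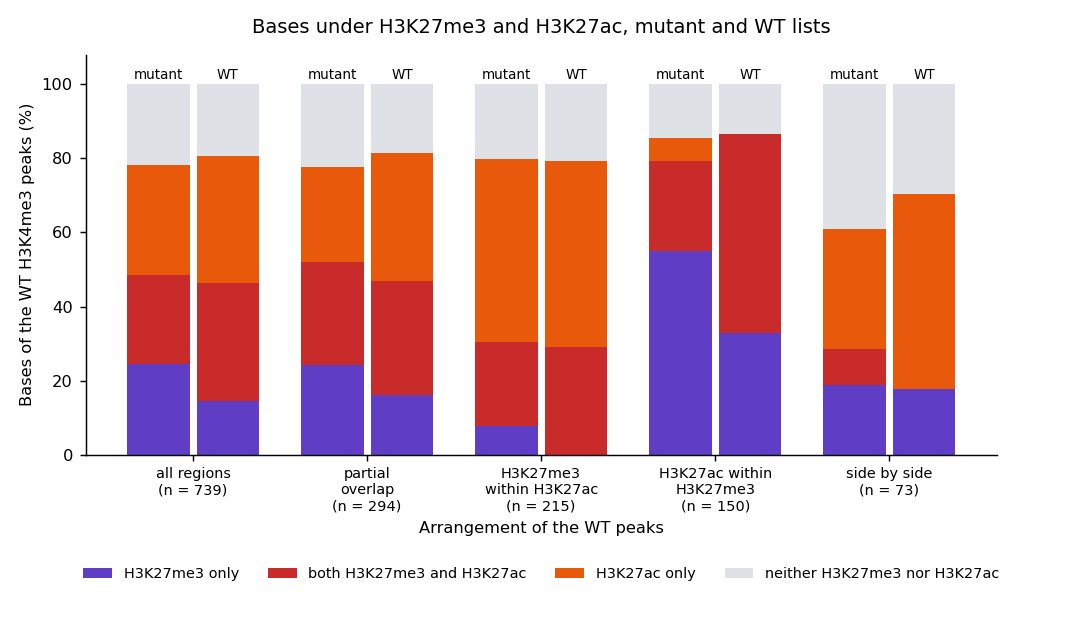
Share of the bases of the WT H3K4me3 peaks (%, y axis) under H3K27me3 only, both marks, H3K27ac only or neither, in the mutant (left bar) and WT (right bar) lists, by the arrangement of the WT peaks (the 7 regions with identical cover are counted in the first pair only). Over all regions, bases under both marks made up 23.9% in the mutant and 31.9% in WT; where H3K27ac lay within H3K27me3, bases under H3K27me3 alone made up 54.9% in the mutant and 32.7% in WT.

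In the 370 regions with all 3 marks in the mutant, H3K27me3 and H3K27ac had a common base in 347 in the mutant (93.8%) and in 337 in WT. The mutant stretches had a median of 1302 bp, where shared. The mutant marks lay side by side in 23, with a median gap of 241 bp. The arrangement was the same as in WT in 178 of the 370 (48.1%). H3K27ac within H3K27me3 was kept most often, at 39 of 59, and H3K27me3 within H3K27ac at 53 of 105. Of the 33 regions that were side by side in WT, 10 were side by side in the mutant and 16 overlapped in part.

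The other 2 marks, which the choice of regions did not use, were both less common in the mutant. H3K79me2, laid down by DOT1L over the start of transcribed genes, overlapped 265 regions in the mutant (35.9%, 32.4 to 39.4) and 406 in WT (54.9%, 51.3 to 58.6). Among all autosomal WT H3K4me3 peaks the shares were 51.5% in the mutant and 58.3% in WT, and the whole list had 21756 autosomal peaks in the mutant and 25869 in WT. Of the 406 regions with WT H3K79me2, 251 had it in the mutant (61.8%, 56.9 to 66.6). The same share was 44.3% for bivalent peaks without H3K27ac (47 of 106, 34.7 to 54.3), so the acetylated bivalent regions stood between the classes. For acetylated peaks without H3K27me3 it was 87.7%, and against these the difference was -25.9 points (-30.8 to -21.3). At like WT H3K79me2 strength that difference was -18.5 points (-22.8 to -14.1). H3K79me2 went with the mutant H3K27ac state: where H3K27ac was found in the mutant, 215 of 311 regions with WT H3K79me2 had it there too (69.1%, 63.7 to 74.2), and where it was not, 36 of 95 (37.9%, 28.1 to 48.4). From the weakest to the strongest of 5 groups by WT H3K79me2 strength, the share in the acetylated bivalent regions ran from 35.4% to 93.8%. The part of strength in the split by H3K27ac was not tested. Regions with and without mutant H3K27me3 had shares of 60.1% (54.4 to 65.5) and 67.7% (57.3 to 77.1).

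H3K4me1 was sparse in the acetylated bivalent regions of both genotypes. It overlapped 16 regions in the mutant (2.17%, 1.24 to 3.49) and 121 in WT (16.4%, 13.8 to 19.2). Among all autosomal WT H3K4me3 peaks these shares were 10.8% in the mutant and 25% in WT. They were 0.78% and 9.55% for bivalent peaks without H3K27ac, and 3.65% and 13.4% for peaks with neither K27 mark. For acetylated peaks without H3K27me3 they were 14.2% and 30.1%. Of the 121 regions with WT H3K4me1, 11 had it in the mutant (9.09%, 4.63 to 15.7), against 5.0% of bivalent peaks without H3K27ac (8 of 160, 2.18 to 9.61) and 35.2% of acetylated peaks without H3K27me3 (33.5 to 36.9). For H3K4me3 peaks with neither K27 mark it was 16.7% (38 of 228, 12.1 to 22.2). The share was thus lower in every other class than in acetylated peaks without H3K27me3. The WT H3K4me1 peaks had a median score of 154 in the acetylated bivalent regions and 193 in acetylated peaks without H3K27me3, and the part of strength in the difference was not tested. The whole H3K4me1 list was shorter in the mutant, with 5358 autosomal peaks against 15974 in WT.

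H3K79me2 lay more often on the side away from H3K27me3. Each region was turned so that the side with more WT H3K27me3, within 5000 bp of the centre, was on the right, which could be done for all but 3. Mutant H3K79me2 covered more of the opposite side in 247 of the 369 regions where its sides differed (66.9%, 61.9 to 71.7), and WT H3K79me2 in 303 of 475 (63.8%, 59.3 to 68.1). H3K27ac had no such side: more of it lay opposite to WT H3K27me3 in 51.8% of regions in the mutant (47.4 to 56.2) and in 50.7% in WT (47.0 to 54.4). Mutant H3K4me3 leaned the other way, with more on the side opposite to WT H3K27me3 in 42.5% of 715 regions (38.9 to 46.2), against 48.5% of 412 in WT (43.6 to 53.5). The regions are centred on the WT H3K4me3 peak, so its WT sides can differ through neighbouring peaks alone, and the genotype shares are not alike in this. Mutant H3K27me3 covered more of the WT H3K27me3 side in 448 of 587 regions (76.3%). At 2000 bp from the centre, mutant H3K27me3 covered 50.5% of regions on that side and 23.5% on the other, and WT H3K27me3 41.5% and 9.69%, the WT values being set by the turning. H3K79me2 at the same distance covered 8.78% on the H3K27me3 side and 20.6% on the other in the mutant, and 16.3% and 31.1% in WT.

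**Figure D4:**
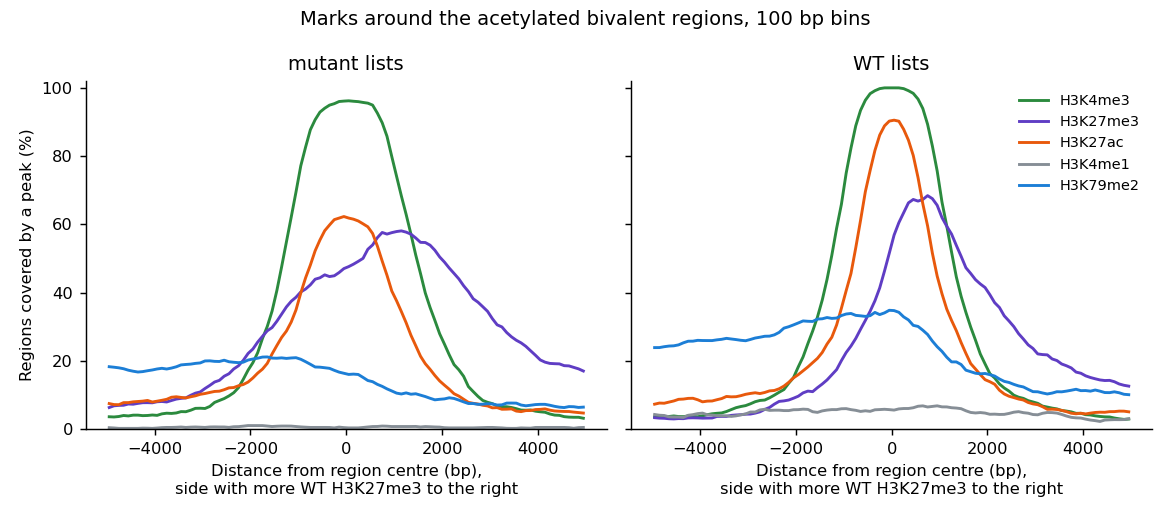
Share of the 739 regions covered by a peak of each mark (%, y axis) by distance from the region centre (bp, x axis), in the mutant (left) and WT (right) lists, with the side that has more WT H3K27me3 on the right. At the centre H3K27ac covers 62.1% of regions in the mutant and 90.4% in WT, and H3K79me2 16.2% in the mutant and 34.8% in WT; the right-hand lean of WT H3K27me3 comes from the turning.

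Since the regions were chosen on WT peaks, the same rule was applied to the mutant lists. This gave 575 mutant regions, 0.778 times the WT number. With a MACS score of at least 200 and a −log10 q of at least 5 the ratio was 1.49, so its direction depends on the threshold. The mutant regions were wider, with a median of 2903 bp against 2494 bp in WT, and the bases under all 3 marks were nearly equal, at 646 kb in the mutant and 647 kb in WT. Arrangements were alike: a shared base in 90.4% of mutant (87.7 to 92.7) and 90.1% of WT regions (87.7 to 92.2), and side by side marks in 9.57% and 9.88%.

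Of the 575 mutant regions, 375 had all 3 marks in WT (65.2%, 61.2 to 69.1). At 114 of them WT had H3K4me3 with H3K27ac and no H3K27me3 (19.8%, 16.6 to 23.3), and at 59 H3K4me3 with H3K27me3 and no H3K27ac (10.3%, 7.90 to 13.0). Thus H3K27me3 was the 1 mark missing in the other genotype at 114 mutant and 113 WT regions, and H3K27ac at 59 mutant and 183 WT regions. When the longer list of each mark was shortened to its strongest peaks, so that both genotypes had equal numbers, H3K27ac was the missing mark at 70 of 550 mutant and 131 of 643 WT regions, and H3K27me3 at 103 mutant and 118 WT regions. With a MACS score of at least 200 and a −log10 q of at least 5 in both genotypes, a peak below these limits counted as missing. H3K27ac was then the missing mark at 8 of 130 mutant and 29 of 87 WT regions, and H3K27me3 at 80 mutant and 22 WT regions.

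Single regions show the range of states, named by mm9 coordinates counted from 1. The region with most WT bases under all 3 marks was at chr11:120094373-120099988, where both K27 marks shared 3528 bp in the mutant and 4619 bp in WT. H3K79me2 covered 4678 bp of it in the mutant and 5044 bp in WT. The next were at chr7:123173976-123178721, chr5:58105645-58113971, chr15:31294294-31298336 and chr2:164772976-164777174. All 5 had all 3 marks in the mutant, with shared stretches of 2221 to 4403 bp, against 3383 to 4619 bp in WT. On chromosome 7 H3K27me3 covered 4746 bp in the mutant and 3603 bp in WT, while H3K27ac covered 2221 bp in the mutant and 4605 bp in WT.

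Regions that had H3K27ac and no H3K27me3 in the mutant were led by chr1:167635386-167639003. There H3K27me3 covered no bases in the mutant and 2752 of 3618 bp in WT, and H3K27ac covered all 3618 bp in both genotypes. The nearest mutant H3K27me3 peak was 67708 bp away. Others were at chr15:10641979-10645311, chr10:126601794-126605348 and chr12:36767325-36769716. WT H3K27me3 had −log10 q values of 3.25 to 4.20 over the 4 regions. The lowest of the whole WT list was 2.73, and the median of its autosomal peaks 3.89. H3K4me1 was absent from the mutant list at all 4 and covered 1006 bp in WT on chromosome 1 and 1653 bp on chromosome 10.

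Regions that had H3K27me3 and no H3K27ac in the mutant were led by chr7:38552313-38559004. Here H3K27me3 covered 6414 bp in the mutant (−log10 q 7.39) and 6046 bp in WT (4.30), and H3K27ac covered none in the mutant and 3212 bp in WT. At chr4:99322186-99327536, H3K27me3 covered all 5351 bp in the mutant and 3207 bp in WT, H3K27ac covered none in the mutant and 2517 bp in WT, and H3K79me2 none in the mutant and 4987 bp in WT. At chr10:94404784-94408408 H3K27me3 covered all 3625 bp in the mutant and 2592 bp in WT, and H3K27ac none in the mutant and 2607 bp in WT. The fourth was at chr19:7490906-7493503, with 1136 bp of H3K27me3 in the mutant and 1017 bp in WT. Mutant H3K4me3 was present at all 4, over 2598 to 5768 bp.

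Regions with H3K27me3 alone in the mutant were narrower. The widest was at chr7:152126657-152128589, where H3K27me3 covered all 1933 bp in both genotypes, and a mutant H3K4me3 peak lay 431 bp away. At chr7:17531535-17533242 it lay 707 bp away, so both regions sit beside H3K4me3 that is called in the mutant. The others were at chr5:31597235-31598788 and at chr10:80747985-80749304, with mutant H3K4me3 at 2899 and 5960 bp. None of the 3 marks was in the mutant lists at chr7:29251621-29253184, chr7:52878706-52879339 and chr17:4626119-4626718. WT H3K4me3 at these 3 was weak, with scores of 103 to 357.

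Side by side regions with all 3 marks in the mutant were led by chr5:141082360-141087624. H3K27me3 covered 473 bp in the mutant and 466 bp in WT, H3K27ac 4553 bp in the mutant and 4488 bp in WT, with no shared base in either genotype. The marks at chr15:57524319-57528208 were also side by side in both. At chr8:107868975-107874140 and chr19:55815498-55819503, the marks shared 511 and 1119 bp in the mutant and no base in WT. H3K27me3 there covered 700 and 1293 bp in the mutant, against 201 and 104 bp in WT.

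**Figure D5:**
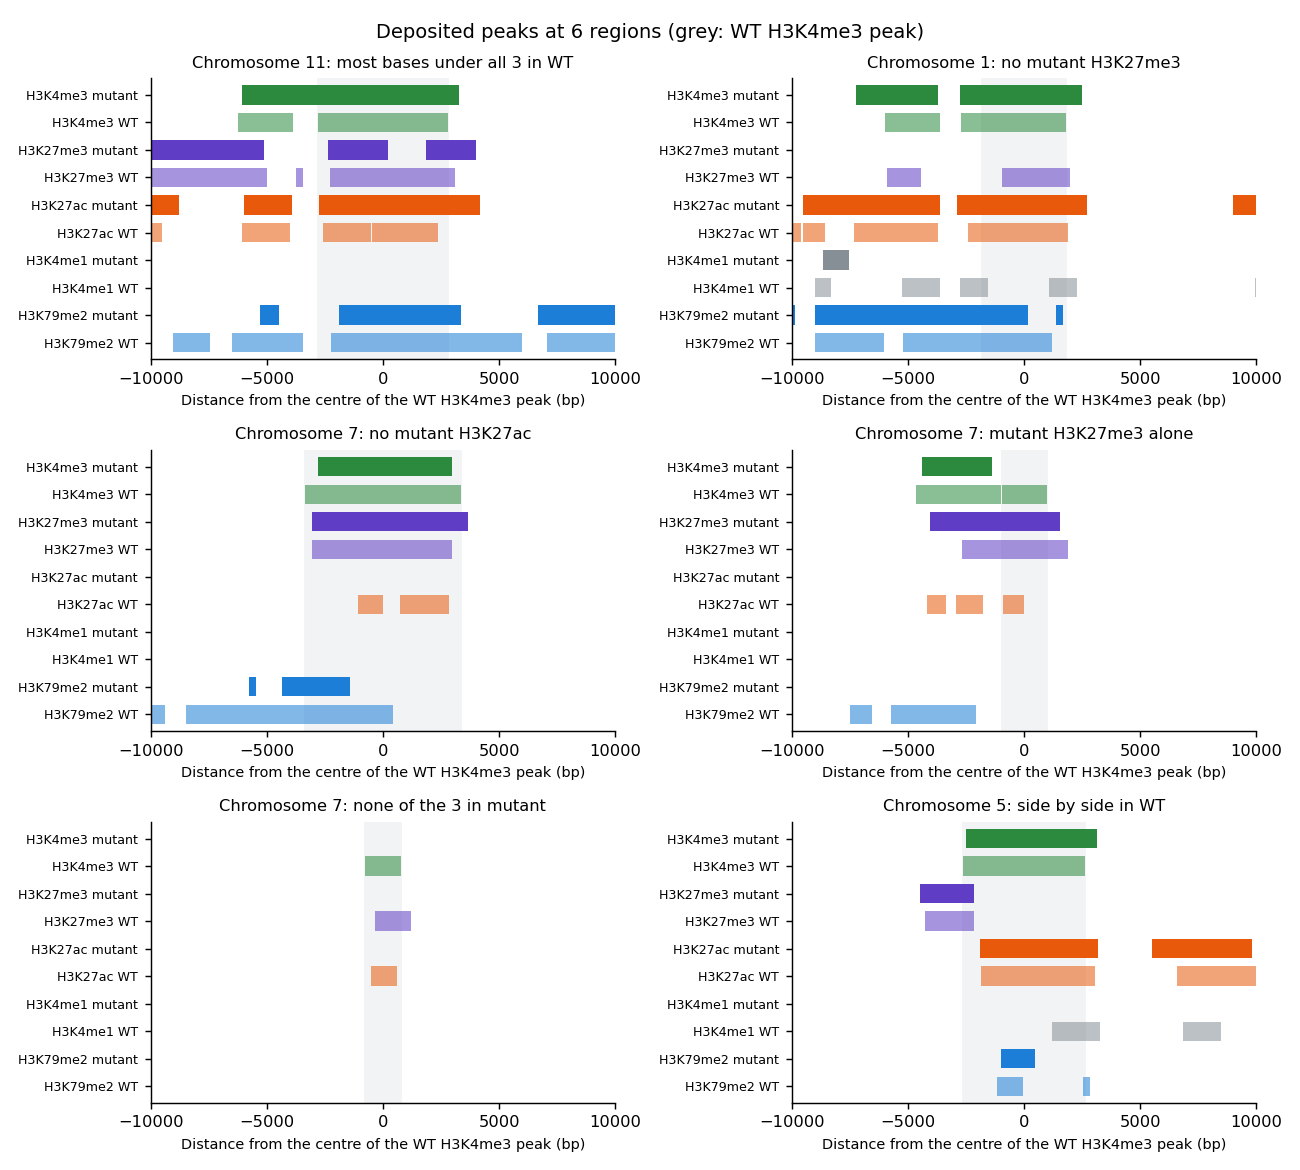
Deposited peaks of 5 marks (rows, mutant above WT) within 10000 bp of the centre of 6 regions, the first of each group named in the text; the grey band is the WT H3K4me3 peak and the x axis gives distance from its centre (bp). H3K27me3 is missing from the mutant row in the region on chromosome 1, H3K27ac from that in the first region on chromosome 7, and both marks stay apart in both genotypes in the region on chromosome 5.

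Among the mutant regions with no WT H3K27me3, most mutant H3K27me3 was found at chr4:55542031-55547113, over 3646 bp, of which 3535 bp were also under mutant H3K27ac. H3K27ac covered 3647 bp in the mutant and 1462 bp in WT there. The next were at chr1:36611047-36616562 and chr11:68315941-68318993, with 2652 and 2408 bp of mutant H3K27me3. Among those with no WT H3K27ac, most mutant H3K27ac was found at chr3:89082160-89085893, over 3085 bp. H3K27me3 covered 3734 bp there in the mutant and 3620 bp in WT. The next were at chr1:62748945-62754646 and chr4:155026123-155029647, with 2919 and 2633 bp of mutant H3K27ac.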

How the data were processed

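Histone marks were measured by ChIP-seq, with 1 library per genotype and mark. The values start from 10 peak lists, each called in a single library, on mouse build mm9. Bowtie, MACS, MACS2 and deepTools are named in the submitters' processing notes, with no versions or roles. The authors deposited H3K4me3, H3K27ac and H3K4me1 as MACS lists with a score per peak, and H3K27me3 and H3K79me2 as MACS2 broad peaks with a fold enrichment (ratio), −log10 p, −log10 q and a score. The fold and −log10 p were not used in a comparison. Scores and −log10 q are the authors' values and served to rank peaks within a list. They also served as limits on the lists of both genotypes in the stricter settings, and some are given for both at named regions. Read depth is unknown, so equal values may not mean the same in mutant and WT.

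Overlap was 1 bp or more. Covered bases were counted inside each H3K4me3 peak. Differences between classes of peaks have Newcombe intervals, and those at like strength a normal interval over 5 groups. Alternatives were stricter thresholds, other overlaps, chromosome X, lists of equal length and regions with a shared base. The regions, classes and rules were chosen with earlier results of these data known. The H3K79me2 comparison and the lists of equal length or stricter threshold for the reciprocal counts were added after seeing the data. Named regions were those with most bases under the mark in question, or the widest, in each mutant state. The gene and sequence tables at hand are on another build, so no gene names or sequences are given. The 2 inputs were not used here. Figures were drawn with matplotlib 3.10.9, and intervals computed with scipy 1.17.1 and numpy 2.4.6 under Python 3.11.15. On 2000 simulated peaks the same code recovered all 8 quantities it was tested on.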

Additional observations from a re-analysis of the deposited data

How the results depend on the processing

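No paired analysis was possible because each genotype has 1 library per mark. With a MACS score of at least 200 and a −log10 q of at least 5, 87 regions qualified, and the mutant over WT ratio of region counts was 1.49 in place of 0.778. Mutant H3K4me3 was then found at 97.7%, H3K27me3 at 64.4%, H3K27ac at 56.3% and all 3 at 29.9%, and 79.3% of the WT regions had a base under all 3 marks. With the longer list of each mark shortened to its strongest peaks, to equal numbers in both genotypes, mutant H3K4me3 was found at 98.0% and H3K27ac at 72.5%. A base under all 3 marks was found in 92.5% with an overlap of at least 200 bp and in 76.6% with peaks within 1000 bp counted. At like WT strength the class differences shrank to -3.63 points for H3K27me3, 2.60 for H3K4me3 against bivalent peaks without H3K27ac, -9.83 for H3K27ac and -18.5 for H3K79me2. All other settings run left these results within their intervals, or, for counts and the ratio, within 1.5 times. The stricter threshold was set on the lists of both genotypes, so a weaker mutant peak counted as missing. With the full mutant list, H3K27me3 was found at 89.8% of the group of regions with a WT −log10 q of 5.07 and above. The cause of the change with the stricter threshold was not tested. Depth is unknown, so a missing peak cannot be told from a library that called fewer.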

Other observations

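Outside H3K4me3 peaks, bases under both H3K27ac and H3K27me3 were more extended in the mutant. Over the autosomes they came to 0.175 Mb in the mutant and 0.0835 Mb in WT, which was 21.3% of all bases under both marks in the mutant and 11.4% in WT. Inside H3K4me3 peaks of the same genotype they came to 0.646 Mb in the mutant and 0.647 Mb in WT. All bases under both marks made up 1.53% of the H3K27ac bases in the mutant and 1.39% in WT. Of the H3K27me3 bases, which came to 37.6 Mb in the mutant and 27.6 Mb in WT, they made up 2.18% and 2.65%.

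Acetylated bivalent regions were found on every autosome, from 3.33% of the H3K4me3 peaks of chromosome 5 to 7.72% of those of chromosome 15. All 3 marks were found in the mutant at 35.0% (chromosome 1) to 63.3% (chromosome 6) of the regions of a chromosome, with 19 to 78 regions each. On chromosome X, which was left out above, 2 WT regions met the rule. In the mutant, the region from 70918263 to 70920809 had H3K4me3 and H3K27me3, and that from 162676620 to 162678244 had H3K4me3 alone. The 1 mutant region on chromosome X, from 137198714 to 137200970, had H3K4me3 and H3K27ac in WT.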
